A study of Homo sapiens with 6 samples.

Results

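The sestrins and the other inhibitory proteins described here hold back mTORC1, the kinase complex that drives translation and cell growth when amino acids and growth factors are plentiful. The set is a fixed list of 10 gene names, drawn up with earlier results of these arrays known: the sestrins SESN1, SESN2 and SESN3, the paralogs DDIT4 and DDIT4L, the translation repressors EIF4EBP1 and EIF4EBP2, the mTOR-binding inhibitor DEPTOR, and the complex partners TSC1 and TSC2. All 10 of the 10 had a named probe set, exactly 1 each, among 14884 named genes and 53617 probe sets. SESN2, DDIT4 and EIF4EBP1 are classed here as the stress-induced paralogs of their families, and the other 7 genes are not. This split is a label for the comparison and does not say that the other genes never respond to stress.

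The cells were of BE(2)-C, a line from a human neuroblastoma, in the form BE(2)-C_tetoff_KDM4C, whose tet-off construct expresses the histone H3 demethylase KDM4C when doxycycline is absent. Groups were measured at day 6 on Affymetrix whole-transcript arrays, 3 arrays of cells grown without doxycycline (construct on) and 3 arrays of cells grown with doxycycline (construct off), all in DME/F-12 medium with dialyzed serum. Cells of both groups carry the construct, and the effects of KDM4C induction and of the absence of doxycycline cannot be told apart here. The samples of a group are called independent in the design text, which names no separate cultures, and p-values measure the spread between these samples.

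Amino acid shortage reaches mTORC1 through sestrins, which bind the GATOR2 complex and let GATOR1 switch off the Rag GTPases that carry mTORC1 to the lysosome. A second route runs through DDIT4, which activates the TSC1-TSC2 complex, the inhibitor of the small GTPase RHEB. Downstream, 4E-BP proteins such as EIF4EBP1 bind the cap-binding factor EIF4E until mTORC1 phosphorylates them. SESN2, DDIT4 and EIF4EBP1 are known targets of ATF4, the transcription factor of the amino acid and endoplasmic reticulum stress response, while SESN1 is known as a p53 target and SESN3 as a FOXO target.

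All levels are expression values as deposited, taken to be log2 from their range, differences are no doxycycline minus doxycycline on that scale, and a gene was called at a limma adjusted p below 0.05 over all 53617 probe sets. KDM4C was at 9.03 ± 0.05 without doxycycline and 7.76 ± 0.05 with it (SD, n = 3 each), a difference of 1.27. The noradrenergic neuroblastoma markers HAND2, GATA3, TH and DBH lay at 9.56 to 11.28 without and 9.22 to 11.00 with doxycycline. Of 18 markers of neuroblastoma and of other cells, 12 had a named probe set, and limma called 0 of them (3 at an unadjusted p below 0.05, namely TH, DBH and VIM), with differences from -0.19 to 0.34. The endothelial PECAM1 and VWF and the immune TYROBP lay at 3.08 to 3.35 without and 2.98 to 3.35 with doxycycline, below the median probe set at 3.945. The immune CD68, the epithelial EPCAM, KRT8 and KRT18 and the mesenchymal VIM lay above it, at 4.25 to 8.04 without and 4.20 to 8.23 with doxycycline. Their part in the results below was not tested. In RNA of whole cultures, a change in the number of cells and a change in RNA per cell cannot be told apart.

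Of the 10 genes, 3 rose without doxycycline (SESN2, DDIT4 and EIF4EBP1), 0 fell and 7 did not pass. Over all named genes, with the brightest probe set for each gene, 0.430% rose and 0.134% fell, together 0.564%. The median difference of the 10 was 0.16, against -0.002 over all named genes. Because of how the list was drawn up, the count is a description and not a test of the set.

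**Figure D1:**
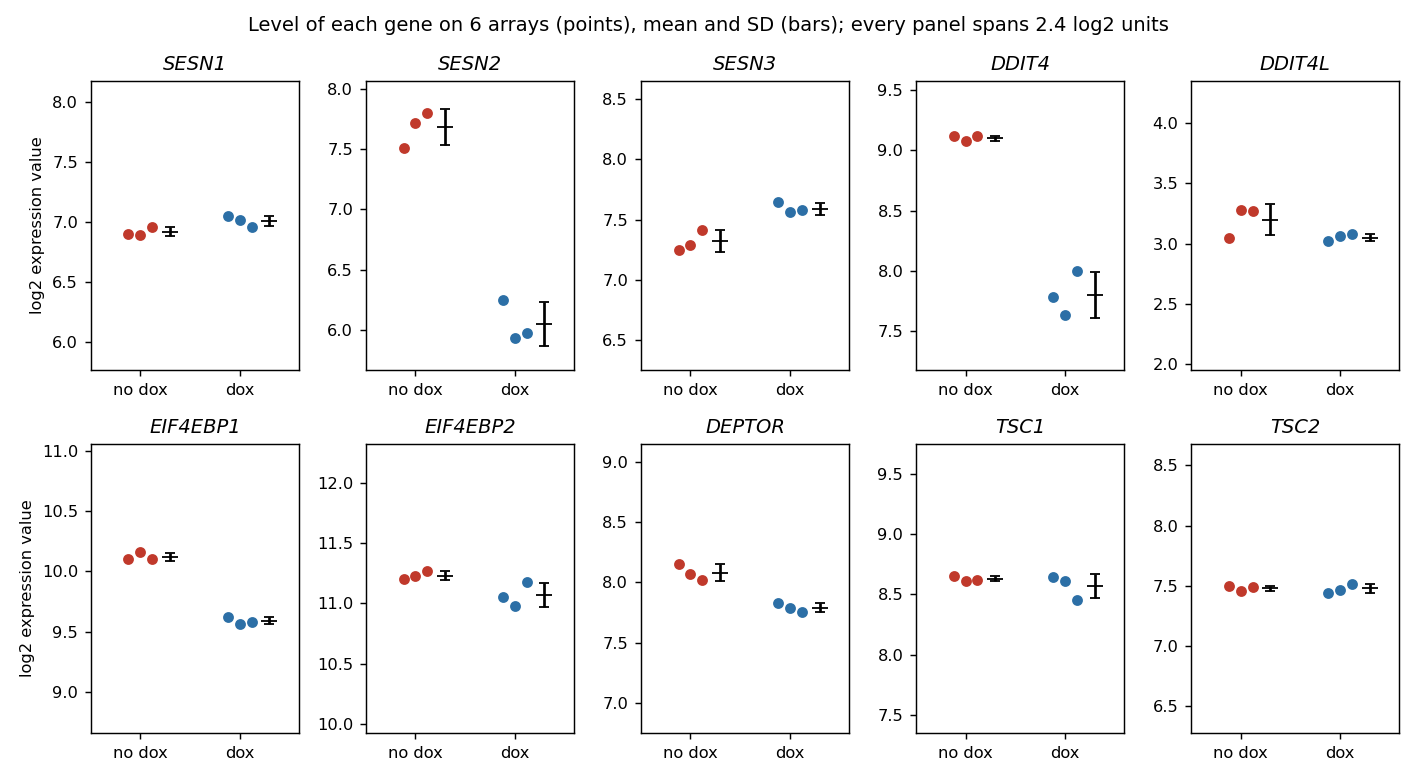
Log2 expression value of each of the 10 genes on the 3 arrays without doxycycline (red) and the 3 arrays with doxycycline (blue). Bars give the mean and SD, and every panel spans the same number of log2 units. SESN2, DDIT4 and EIF4EBP1 show the widest gaps between the groups, while TSC1 and TSC2 points overlap.

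SESN2, a leucine sensor and the sestrin classed here as stress-induced, was at 7.51, 7.72 and 7.80 on the arrays without doxycycline, against 6.25, 5.93 and 5.97 on the arrays with doxycycline. The groups were 1.26 apart at their nearest points, a gap several times the SD of either group (0.15 without and 0.18 with doxycycline). SESN2 rose 3.09-fold (log2 difference 1.63, SE 0.12, limma adjusted p = 0.0130), which ranked 4 of 14884 genes by difference.

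SESN1, the p53-regulated paralog, gave 6.90, 6.89 and 6.96 without doxycycline and 7.05, 7.02 and 6.96 with it. The highest array without doxycycline met the lowest with doxycycline, and the difference of -0.09 did not pass (95% confidence interval -0.24 to 0.06, limma adjusted p = 0.619). SESN3, the FOXO-regulated paralog, gave 7.25, 7.29 and 7.41 without doxycycline and 7.65, 7.56 and 7.58 with it. Here all 3 arrays without doxycycline lay below all 3 with it, by 0.14 at the nearest points. The SESN3 difference of -0.28 (95% confidence interval -0.45 to -0.11) had an unadjusted p of 0.00683 and did not pass over all probe sets (limma adjusted p = 0.210). Within the family, therefore, the only called change was that of SESN2, and the estimates of SESN1 and SESN3 carried the opposite sign.

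DDIT4, also known as REDD1 and induced by hypoxia, glucocorticoids and ATF4, was at 9.12, 9.08 and 9.12 without doxycycline, against 7.78, 7.63 and 8.00 with it. The arrays without doxycycline were nearly equal (SD 0.02), and those with it were spread more widely (SD 0.19), with replicate 3 the highest. DDIT4 rose 2.47-fold (log2 difference 1.30, SE 0.10, limma adjusted p = 0.0138) and ranked 11 of 14884 genes. DDIT4L (REDD2), a paralog that also inhibits mTORC1, was at 3.05, 3.28 and 3.27 without and 3.02, 3.06 and 3.08 with doxycycline. All of these values lie below the median probe set, the groups overlap, and the difference was 0.15 (95% confidence interval -0.05 to 0.35, limma adjusted p = 0.530). At such a dim probe set a change could be missed.

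EIF4EBP1 (4E-BP1) was at 10.10, 10.16 and 10.10 without doxycycline, against 9.62, 9.56 and 9.58 with it. Replicates were tight in both groups (SD 0.03 each) and the groups lay 0.48 apart. EIF4EBP1 rose 1.45-fold (log2 difference 0.53, SE 0.06, limma adjusted p = 0.0337), a smaller change than those of SESN2 and DDIT4, at rank 125 of 14884. EIF4EBP2, the paralog known for its role in neurons, was at 11.20, 11.23 and 11.27 without and 11.05, 10.98 and 11.18 with doxycycline. Its groups were only 0.02 apart, and the difference of 0.16 did not pass (95% confidence interval -0.01 to 0.34, limma adjusted p = 0.441).

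DEPTOR, which binds mTOR and inhibits both of its complexes, gave 8.15, 8.07 and 8.02 without doxycycline and 7.83, 7.79 and 7.75 with it. The groups did not overlap, with a gap of 0.19. Its difference of 0.29 (95% confidence interval 0.13 to 0.45) had an unadjusted p of 0.00374 and did not pass over all probe sets (limma adjusted p = 0.168). TSC1, the stabilising partner of the TSC complex, gave 8.65, 8.61 and 8.62 without doxycycline and 8.64, 8.61 and 8.45 with it. The groups overlapped, and replicate 3 with doxycycline alone was lower. The TSC1 difference was 0.06 (95% confidence interval -0.12 to 0.24). TSC2, which holds the activity that turns RHEB off, gave 7.50, 7.46 and 7.49 without doxycycline and 7.44, 7.47 and 7.52 with it. Its groups overlapped throughout, with a difference of 0.00 (95% confidence interval -0.14 to 0.15, limma adjusted p = 0.985), whose sign turned when 1 array was omitted.

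Groups did not overlap for 6 of the 10 genes (SESN2, SESN3, DDIT4, EIF4EBP1, EIF4EBP2 and DEPTOR), where 24.6% of all named genes had such groups. Of the 7 genes not classed as stress-induced paralogs, SESN3 and DEPTOR had an unadjusted p below 0.05, against 14.4% of all named genes, and their estimates point in opposite directions.

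**Figure D2:**
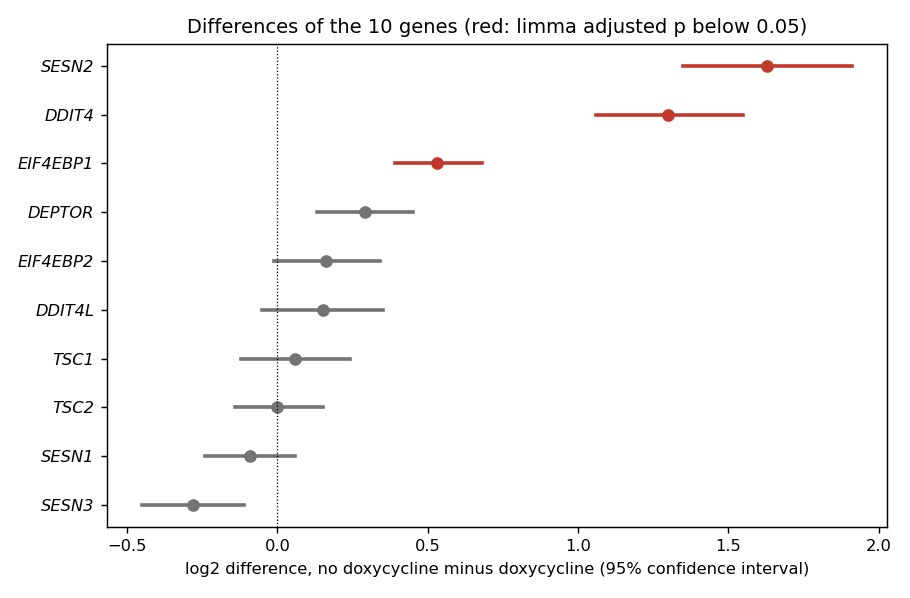
Log2 difference, no doxycycline minus doxycycline, of the 10 genes with its 95% confidence interval from limma (n = 3 arrays per group), in order of size. Red marks the 3 genes past the threshold, SESN2 at 1.63, DDIT4 at 1.30 and EIF4EBP1 at 0.53, and SESN3 stands at the other end at -0.28.

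The 3 calls need nearly all arrays. SESN2 passed without no-doxycycline replicate 1 (limma adjusted p = 0.0464), and lost the call without no-doxycycline replicates 2 and 3 (0.0811 and 0.0906) and without doxycycline replicates 1, 2 and 3 (0.0632, 0.0648 and 0.0578). DDIT4 passed without doxycycline replicate 3 (limma adjusted p = 0.0311), and lost the call without no-doxycycline replicates 1, 2 and 3 (0.0767, 0.0912 and 0.0908) and without doxycycline replicates 1 and 2 (0.0853 and 0.0607). EIF4EBP1 lost the call without any 1 of the 6 arrays, at limma adjusted p values of 0.123, 0.141 and 0.144 without no-doxycycline replicates 1, 2 and 3, and of 0.140, 0.126 and 0.119 without doxycycline replicates 1, 2 and 3. The differences themselves moved little over these 6 omissions, from 1.57 to 1.73 for SESN2, from 1.22 to 1.40 for DDIT4 and from 0.51 to 0.55 for EIF4EBP1. Lost calls were not particular to these genes. KDM4C, at a limma adjusted p of 0.00788 on all 6 arrays, passed in 2 of the 6 omissions (0.0311 to 0.0696).

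The stress-induced paralogs were then set against the others of their family on each array, which asks whether the family members moved unequally. For SESN2 minus SESN1 the log2 differences between the genes were 0.61, 0.83 and 0.84 without doxycycline and -0.80, -1.09 and -0.99 with it. That is a shift of 1.72 between the groups, with no overlap. For SESN2 minus SESN3 they were 0.27, 0.43 and 0.39 without and -1.40, -1.63 and -1.61 with doxycycline, a shift of 1.91, larger than that of SESN2 alone. For DDIT4 minus DDIT4L they were 6.07, 5.80 and 5.84 without and 4.76, 4.57 and 4.92 with doxycycline, a shift of 1.15. DDIT4L lies below the median probe set, with 14.1% of probe sets dimmer, so this shift is mostly that of DDIT4 and says little of DDIT4L itself. For EIF4EBP1 minus EIF4EBP2 they were -1.10, -1.08 and -1.17 without and -1.44, -1.42 and -1.60 with doxycycline, a shift of 0.37. Only the shift is read here, since the level of 1 probe set cannot be set against that of another. In all 4 pairs the arrays without doxycycline lay above those with it, by 1.41, 1.66, 0.88 and 0.25 at the nearest points in the order given. Each two-sided exact permutation p was 0.1, the smallest that 3 against 3 arrays allow, and 0.1 after adjustment over the 4 pairs, of which the 2 sestrin pairs share SESN2.

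**Figure D3:**
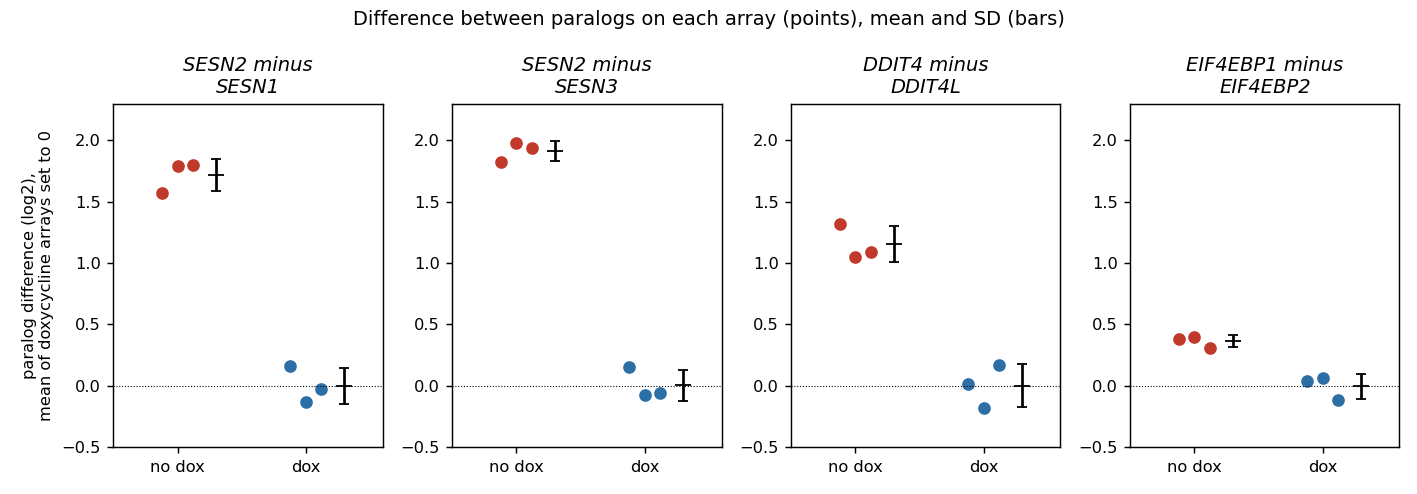
Log2 difference between each stress-induced paralog and its relative on every array, with the mean of the doxycycline arrays set to 0. Points are arrays, and bars give the mean and SD (n = 3 each). The shift is 1.72 and 1.91 for SESN2 against SESN1 and SESN3, 1.15 for DDIT4 against the dim probe set of DDIT4L and 0.37 for EIF4EBP1 against EIF4EBP2.

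Promoter sequence was read from RefSeq promoter windows (GRCh38.p14) for 8 of the 10 genes, in 11 windows. The promoters of EIF4EBP1 and DEPTOR were left out of this search, so nothing is said here of their motifs. The 250 bases before each transcript start were searched on both strands for the C/EBP-ATF response element TGATGNAA, which ATF4 binds, the cyclic AMP response element TGACGTCA, the AP-1 site TGANTCA, the E-box CACGTG, and ACGTG, the core of the hypoxia response element, which also lies inside the E-box. The windows of SESN2 and DDIT4, the genes with the largest increase, and of TSC2, whose level did not pass and had a difference of 0.00, are shown because they contrast in these letters, with matches in capitals.
SESN2, chr1:28259268-28259517, plus strand: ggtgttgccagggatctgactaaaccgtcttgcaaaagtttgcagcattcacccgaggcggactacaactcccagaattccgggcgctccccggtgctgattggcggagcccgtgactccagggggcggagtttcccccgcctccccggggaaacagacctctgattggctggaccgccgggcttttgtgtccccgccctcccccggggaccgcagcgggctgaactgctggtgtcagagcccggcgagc
DDIT4, chr10:72273674-72273923, plus strand: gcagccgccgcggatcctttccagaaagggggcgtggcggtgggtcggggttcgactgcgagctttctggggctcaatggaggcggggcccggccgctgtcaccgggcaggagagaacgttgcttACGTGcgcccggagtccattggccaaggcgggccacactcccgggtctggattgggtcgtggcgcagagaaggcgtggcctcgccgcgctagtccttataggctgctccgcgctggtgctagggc
TSC2, chr16:2047735-2047984, plus strand: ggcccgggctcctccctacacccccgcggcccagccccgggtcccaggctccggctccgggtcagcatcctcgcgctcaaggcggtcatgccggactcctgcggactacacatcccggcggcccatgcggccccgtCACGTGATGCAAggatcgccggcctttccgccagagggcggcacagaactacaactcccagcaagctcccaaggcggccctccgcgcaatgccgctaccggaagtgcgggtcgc
The SESN2 window held none of the 5 motifs, and neither did those of SESN1, SESN3, DDIT4L, EIF4EBP2 and TSC1 or the second TSC2 window. The DDIT4 window held 1 match, ACGTG, 125 to 121 bases before the start. The TSC2 window held the E-box at 114 to 109 bases and TGATGCAA at 110 to 103 bases before the start, sharing 2 letters. Among 35116 promoter windows of this length, 3.14% held TGATGNAA, 1.65% TGACGTCA, 6.57% TGANTCA, 6.34% CACGTG and 18.5% ACGTG. A match is a string of letters and not a bound site, and elements outside these windows were not looked at.

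Other genes of the mTORC1 pathway were described from fixed lists. Over 8 lists of nutrient sensing, complex subunits, upstream input and outputs, 47 of 81 listed genes had a named probe set, and 1 rose (TRIB3) and 0 fell, with a median difference of -0.01. The called share was 1 of 47, against 0.564% of all named genes. At an unadjusted p below 0.05, 6 were higher and 6 lower, together 25.5%, against 14.4% of all named genes. Of 6 measured genes of GATOR1, the brake on the Rag GTPases, and of KICSTOR, its anchor, 0 passed in limma (1 up and 1 down by an unadjusted p below 0.05). The KICSTOR subunit KICS2 was at 7.23 without and 7.68 with doxycycline (difference -0.45, limma adjusted p = 0.116), NPRL2 was at -0.05 and DEPDC5 at 0.25. The 3 measured subunits of GATOR2, to which sestrins bind, all had negative differences, where 49.4% of all named genes had a positive one. Among them were WDR59 at -0.33 and SEH1L at -0.25, and 0 passed (limma adjusted p = 0.317 and 0.228, with 2 lower at an unadjusted p below 0.05).

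In the list of Rag GTPases, Ragulator and folliculin, 1 of 9 measured genes had a positive difference, against 49.4% of all named genes, and 0 passed in limma (1 lower at an unadjusted p below 0.05). RRAGD was at -0.26, RRAGA at -0.13 and LAMTOR4 at 0.05. Of 5 measured subunits of the mTOR complexes 0 passed in limma (1 lower at an unadjusted p below 0.05). The kinase MTOR was at -0.01, AKT1S1 (PRAS40) and MAPKAP1 at 0.15 and 0.07, and PRR5L at -0.23, a value from a probe set below the median (3.28 without and 3.51 with doxycycline). CASTOR1, an arginine sensor, was at 0.04, and LARS1, the leucyl-tRNA synthetase, at 0.00. The signs of the differences of NPRL2, LAMTOR4, MTOR, CASTOR1 and LARS1 are not settled, since each turned when 1 of the arrays was omitted.

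The upstream input had its only call in TRIB3, a pseudokinase known to bind AKT and itself an ATF4 target. TRIB3 was at 8.14 without and 6.83 with doxycycline (difference 1.31, SE 0.09, limma adjusted p = 0.0130). All 8 measured genes of this list had positive differences, against 49.4% of all named genes, with a median of 0.09. Some were near zero, such as AKT2 and IRS1 at 0.02 each. Only TRIB3 and RHEBL1, a RHEB paralog at 0.25 (limma adjusted p = 0.226), had an unadjusted p below 0.05. In the list of AMPK and LKB1, no AMPK subunit had a named probe set, and of the 3 measured genes, all of the LKB1 complex, 0 passed in limma (1 up and 1 down by an unadjusted p below 0.05). STRADA was at 0.25, CAB39 at -0.27 and the kinase STK11 (LKB1) at -0.02, whose sign turned when 1 array was omitted. Among 11 mTORC1 substrates and translation outputs 0 passed in limma (2 higher at an unadjusted p below 0.05). The autophagy kinase ULK1 and the transcription factor TFE3 were at 0.27 and 0.20, EIF4E, the factor that EIF4EBP1 and EIF4EBP2 bind, at -0.13 (95% confidence interval -0.28 to 0.02), and the phosphatase LPIN1 at -0.13. No array measured protein, phosphorylation or mTORC1 activity.

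Lists of known inducers of these genes and of their targets were described in the same way, with no test between lists. Of 9 measured ATF4 pathway genes, 6 rose and 0 fell, with a median of 1.16, where 0.430% of all named genes rose. All 9 were higher at an unadjusted p below 0.05, against 14.4% of all named genes in either direction. DDIT3 was at 7.64 without and 6.27 with doxycycline, and TRIB3, ATF5, GDF15, STC2 and ASNS rose by 1.31, 1.26, 1.19, 1.16 and 1.00 on the log2 scale. ATF4 mRNA, named outside the rule after its value was seen, was at 0.31 (limma adjusted p = 0.179). This list was drawn up with earlier results of these arrays known and is not independent evidence of its direction. Of 9 measured p53 and FOXO genes, PLK2 rose (0.94, SE 0.07, limma adjusted p = 0.0130) and 0 fell, with a median of 0.02 (3 up and 1 down by an unadjusted p below 0.05). CCNG1, a p53 target, was at -0.29 and passed as lower with trend and robust moderation (limma adjusted p = 0.0405, against 0.135 here and 0.0405 to 0.308 over all alternatives). FOXO4 and FOXO1 were at 0.31 and -0.10, the last from a dim probe set. FOXO3, named outside the rule after its value was seen, was at 0.43 (limma adjusted p = 0.347). Of 10 hypoxia and glucocorticoid responsive genes 0 passed in limma (3 higher at an unadjusted p below 0.05), with a median of 0.12. A positive difference was found for 7 of the 10, against 49.4% of all named genes. The hypoxia genes NDRG1 and EPAS1 were at 0.65 (limma adjusted p = 0.128) and 0.25, and the glucocorticoid genes ZBTB16 and KLF9 at -0.11 and -0.08. The rest are named outside the rule after their values were seen. ADM, BNIP3, ANKRD37 and EGLN3 (hypoxia) were at 0.23, 0.19, 0.31 and 0.04. FKBP5 and PER1 (glucocorticoid) were at -0.07 and 0.01. Of 8 partners of sestrins in autophagy and the redox response, 0 passed in limma and 0 had an unadjusted p below 0.05, with NFE2L2 at 0.16, PRDX2 at 0.11, SRXN1 at -0.22 and SQSTM1 at -0.15.

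The 7 called genes of these lists also rested on the full set of arrays. TRIB3 and ATF5 passed only without doxycycline replicate 3 (limma adjusted p = 0.0422 for each) and reached 0.0906 and 0.168 at most over the other omissions. DDIT3, ASNS, GDF15, STC2 and PLK2 lost the call without any 1 of the 6 arrays, with limma adjusted p values between 0.0505 and 0.156.

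**Figure D4:**
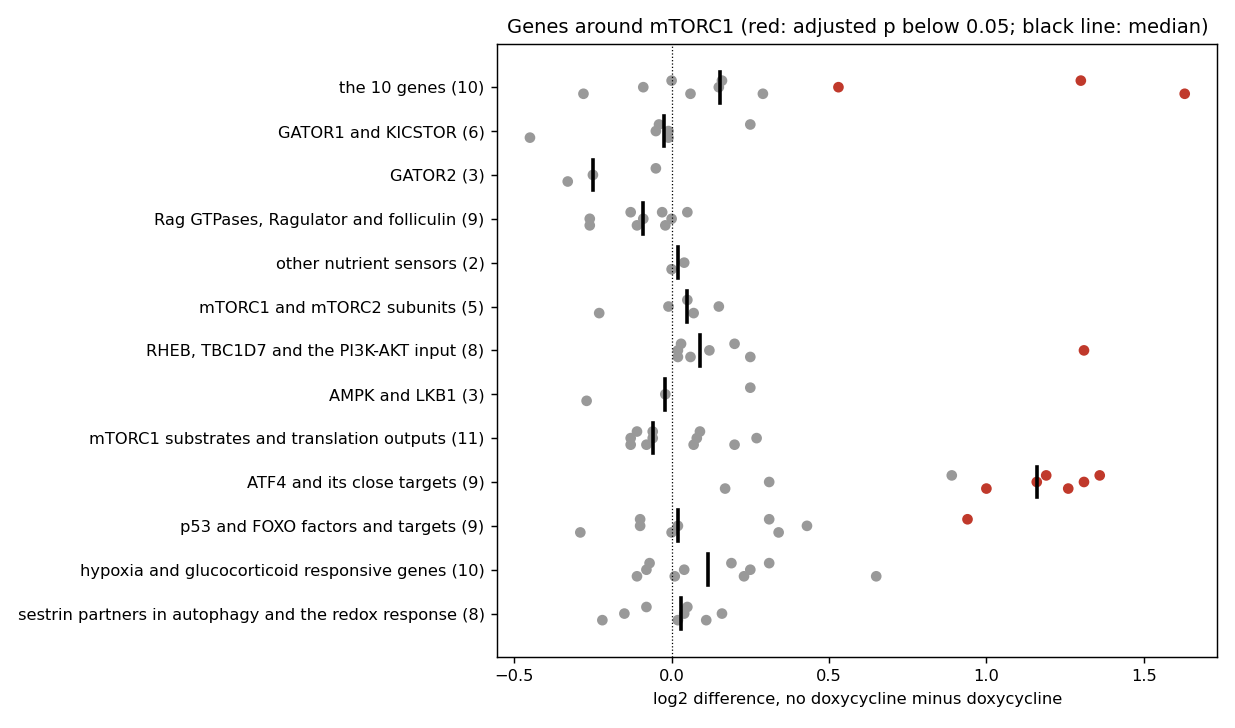
Log2 difference, no doxycycline minus doxycycline, of the 10 genes and of the measured genes of each list (number in brackets). Each point is a gene, red points passed at a limma adjusted p below 0.05, and black lines are medians. The ATF4 list has a median of 1.16, while GATOR2 lies at -0.25 and the other lists have medians from -0.09 to 0.12, below that of the 10 genes at 0.16.

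The genes nearest to each called member were found by the root mean square distance between mean-centred log2 values over the 6 arrays, a measure that needs both a like size and a like spread of values. Nearest to SESN2 among 14883 other genes was JUN, an AP-1 subunit, at a distance of 0.11, followed by TFPI2 (0.22), TRIB3, KDM4C and the row annotated to MIR3143 (0.23 each). JUN shared with SESN2 a lower value on replicate 1 than on replicates 2 and 3 without doxycycline, and a higher value on replicate 1 with doxycycline. DDIT4 came at place 7 from SESN2, at 0.24. Nearest to DDIT4 were ATF5 (0.09), KDM4C (0.11), AKNA and GDF15 (0.12 each) and the row annotated to MIR3143 (0.13). ATF5, GDF15, KDM4C and the row annotated to MIR3143 were, as DDIT4 was, highest on replicate 3 among the arrays with doxycycline, and AKNA was not. Nearest to EIF4EBP1 were JMJD8 and KIF20A (0.03 each), HMMR, MDC1 and FOXM1 (0.04 each). The SESN2 and DDIT4 neighbours did not include any EIF4EBP1 neighbour, and EIF4EBP1 stood at place 103 from SESN2 and at place 102 from DDIT4. SESN3 stood at place 14155 from SESN2 of 14883, and SESN1 at place 10440. With 2 groups of arrays, this distance depends mostly on the size and sign of the difference. The places of EIF4EBP1, SESN3 and SESN1 therefore largely restate their differences (0.53, -0.28 and -0.09, against 1.63 for SESN2 and 1.30 for DDIT4). They are not separate evidence.

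**Figure D5:**
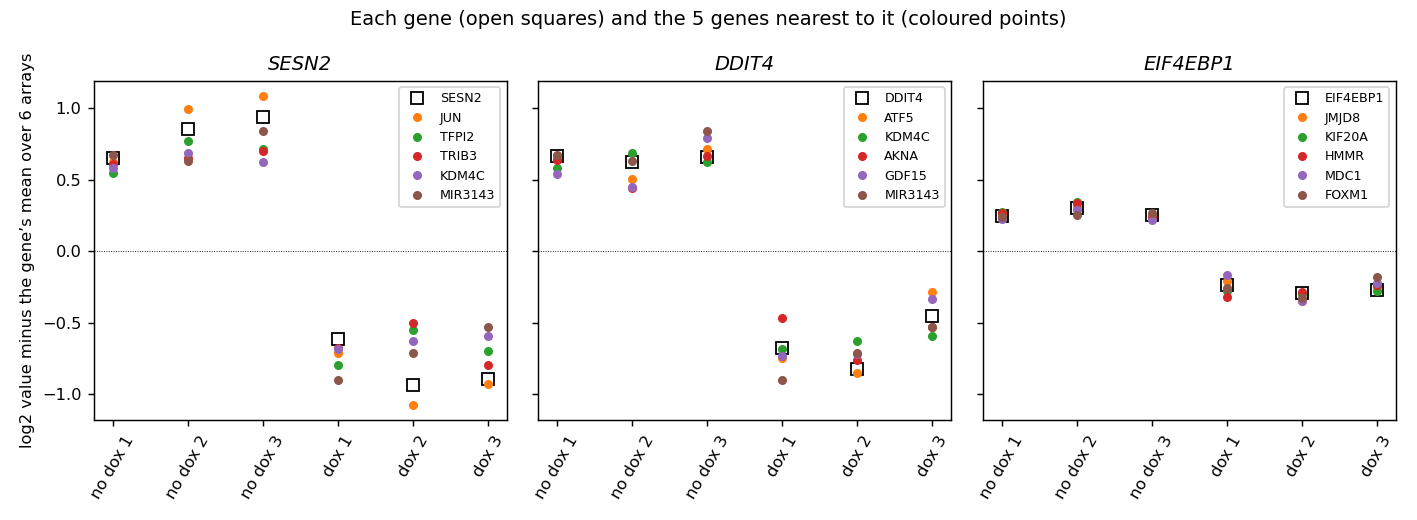
Log2 value minus the mean over 6 arrays, for SESN2, DDIT4 and EIF4EBP1 (open squares) and the 5 nearest genes of each (coloured points) on every array. JUN lies nearest to SESN2 at a distance of 0.11, ATF5 nearest to DDIT4 at 0.09, and the 5 genes near EIF4EBP1 lie within 0.04 of it.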

How the data were processed

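The authors deposited expression values taken here as log2, 1 for each probe set on each array, made with Partek (no version) per the submitters' processing notes. Of background correction, normalization, probe summarization and build, the method is not given in the sources used here. Base 2 was inferred, since deposited values ran from 2.12 to 14.3, while a 16-bit scanner reaches 11.1 as a natural log and 4.82 as a log10. Array medians lay between 3.94 and 3.96, and arrays correlated at 0.991 to 0.993 within groups and 0.990 to 0.991 between them. Gene names came from GEO's platform annotation, with 1 symbol for 16098 of 53617 probe sets, and all 16098 Entrez identifiers were found in RefSeq. No genome position is given for probe sets.

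All probe sets were fitted with limma 3.58.1 in R 4.3.3 (lmFit, eBayes, 2 groups, no covariate) with Benjamini-Hochberg adjustment, after the procedure was tested on simulated data. Paralog shifts were tested by exact permutation. The number of arrays limits the precision. Named genes were all members, KDM4C, called list genes, in each list the 2 of smallest p either way, and the 5 nearest genes of each called member. Members and lists were chosen with earlier results of these data known. Alternatives were quantile normalization, trend and robust moderation, removal of dim probe sets, recentring, the replicate number as a block, the mean of a gene's probe sets, and leaving out each array.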

Additional observations from a re-analysis of the deposited data

How the results depend on the processing

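The 3 increases kept their direction under every alternative run. With 1 array left out this was fixed beforehand, since the groups of these 3 genes do not overlap. Trend and robust moderation, the replicate block and removal of dim probe sets leave each difference as it was. The call held with quantile normalization, trend and robust moderation, removal of dim probe sets, recentring and the mean of a gene's probe sets. Trend and robust moderation gave 255 probe sets higher and 130 lower over the whole table, and removal of dim probe sets 204 and 107, against 133 and 50. With the replicate number as a block (replicate block), 0 of the 10 genes, 0 pathway genes and 0 probe sets higher or lower passed in limma (6251 probe sets, with 4 of the 10 genes up and 1 down, by an unadjusted p below 0.05), at adjusted p = 0.136 for SESN2, 0.119 for DDIT4 and 0.190 for EIF4EBP1. The labels give the replicate number and do not say whether same-numbered arrays were handled together. Deviations of same-numbered arrays correlated at -0.012, -0.014 and 0.041, and 2 arrays without doxycycline correlated best with another number. These correlations cannot show whether the arrays were paired. With 1 array left out, 0 to 1 of the 10 genes, 0 to 1 pathway genes, 0 to 12 probe sets higher and 0 to 3 lower passed. Each omission also leaves fewer arrays from which to estimate the spread, and its share in the lost calls was not tested. Not every value rose: the limma adjusted p of EIF4EBP2 went from 0.441 to 0.362 without doxycycline replicate 3. Over the alternatives the shift ran from 1.65 to 1.80 for SESN2 minus SESN1 and from 1.87 to 1.98 for SESN2 minus SESN3. It ran from 1.06 to 1.24 for DDIT4 minus DDIT4L and from 0.31 to 0.40 for EIF4EBP1 minus EIF4EBP2. Trend and robust moderation does not alter these shifts. DDIT4L was dim and had no value once dim probe sets were removed. Near-zero differences changed sign with 1 array left out: TSC2 (-0.01 to 0.02), LARS1 (-0.03 to 0.05, and -0.004 with quantile normalization), MTOR (-0.02 to 0.009), STK11 (-0.07 to 0.04), LAMTOR4 and CASTOR1 (-0.06 to 0.16 each) and NPRL2 (-0.10 to 0.0097), and the cause was not tested.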
